A study of Mus musculus with 8 samples.

Results

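CD71- neutrophils sorted from mouse brain tumours were compared with CD71- neutrophils generated in culture, over all genes of the deposited count table. The comparison used 4 of the 8 libraries of the series, 2 from the tumour and 2 from culture, chosen by their labels and not by any measured value. Neutrophils are short-lived phagocytes of the bone marrow and blood. They carry antimicrobial proteins in granules and, once they enter a tissue, can release cytokines and chemokines that call in further leukocytes. In tumours they can take up programmes that restrain T cells, and low oxygen in a tumour core is sensed through hypoxia-inducible factor 1 (HIF-1), whose targets include glycolysis genes and the angiogenic factor gene Vegfa.

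CD71 is the transferrin receptor, which brings iron into cells, and the cells were sorted by flow cytometry for its absence. The tumour libraries are labelled brain tumour, with SB28, a mouse glioma line, as the cell source, and the culture libraries naive bone marrow, with neutrophils made in vitro. No treatment, time point, genotype, strain or age was given in the sources used here, nor the agents used in culture. The 2 groups differ in tissue, in cell source and in the way the cells were prepared, so these cannot be told apart in any value below. Whether the 2 libraries of a group came from different animals or cultures is not stated in the labels, so each p-value is set against a spread between libraries that may be technical. The remaining 4 libraries, CD71+ cells from the same 2 origins, entered the estimate of the spread and the comparison at the end.

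Total counts were 9598959 to 13816733 in the CD71- libraries. Counts scaled to library size (CPM, per 1e6 counts) were computed on library sizes scaled by TMM, which assumes that most genes keep their level. A gene without counts can have up to 0.178 and 0.272 CPM in the culture libraries and up to 0.419 and 0.416 CPM in the tumour libraries, from a limit of 3 counts that covers counting error only. On the first principal component of the 4 libraries, with 93.9% of the variance, tumour and culture lay apart. Tfrc, the gene of CD71 (ENSMUSG00000022797.16, chromosome 16, 32608920 to 32632794), on GRCm38 (mm10) as all positions here, stood at 131 and 94.4 CPM in culture and 187 and 145 CPM in the tumour, and at 116 and 115 CPM in CD71+ libraries of culture and 103 and 108 CPM in those of the tumour, so its transcript did not follow the sort label. Its log2 fold change between the CD71- groups was 0.56 (SE 0.19, adjusted p = 0.0177) with TMM but −0.38 with total counts and −0.74 scaled on mature neutrophil genes, and without culture CD71- library 2 the adjusted p was 0.115. Transcripts of the mitochondrial genome took 7.09% and 12% of the counts in culture CD71- libraries and 0.413% and 0.202% in tumour CD71- libraries.

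Of 15975 genes tested, 10723 (67.1%) differed between tumour and culture CD71- neutrophils at an adjusted p under 0.05 in edgeR's quasi-likelihood test. Of these, 4837 (30.3% of genes tested) were higher in the tumour and 5886 (36.8%) were lower, and 8999 (56.3%) differed at least 2-fold. In 13219 genes (82.7%) the values of the groups did not overlap. With so many genes changed, the balance of rises and falls depended on how the libraries were scaled. The share of calls that were higher was 45.1% under TMM, 52.1% under DESeq2 size factors (5408 up, 4982 down), 25.3% with total counts (2994 and 8840) and 19.3% when the libraries were scaled on 25 mature neutrophil genes (2331 and 9755). The median log2 fold change of all genes was −0.28 with TMM and shifted by 0.25, −0.93 and −1.31 under the other scalings. Under all 4 scalings, 2331 genes (14.6%) passed as higher and 4982 (31.2%) as lower. For rises that is the count of the mature neutrophil scaling alone, and for falls that of DESeq2 size factors alone. The 4 scalings are thus not 4 separate checks. Fold changes below are log2, tumour over culture, with TMM. Counts of list members below stand beside these shares over all genes, 30.3% higher and 36.8% lower, and 14.6% and 31.2% under all 4 scalings. A gene is called stable where it passed in the same direction under all 4 scalings, and exceptions are named.

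**Figure D1:**
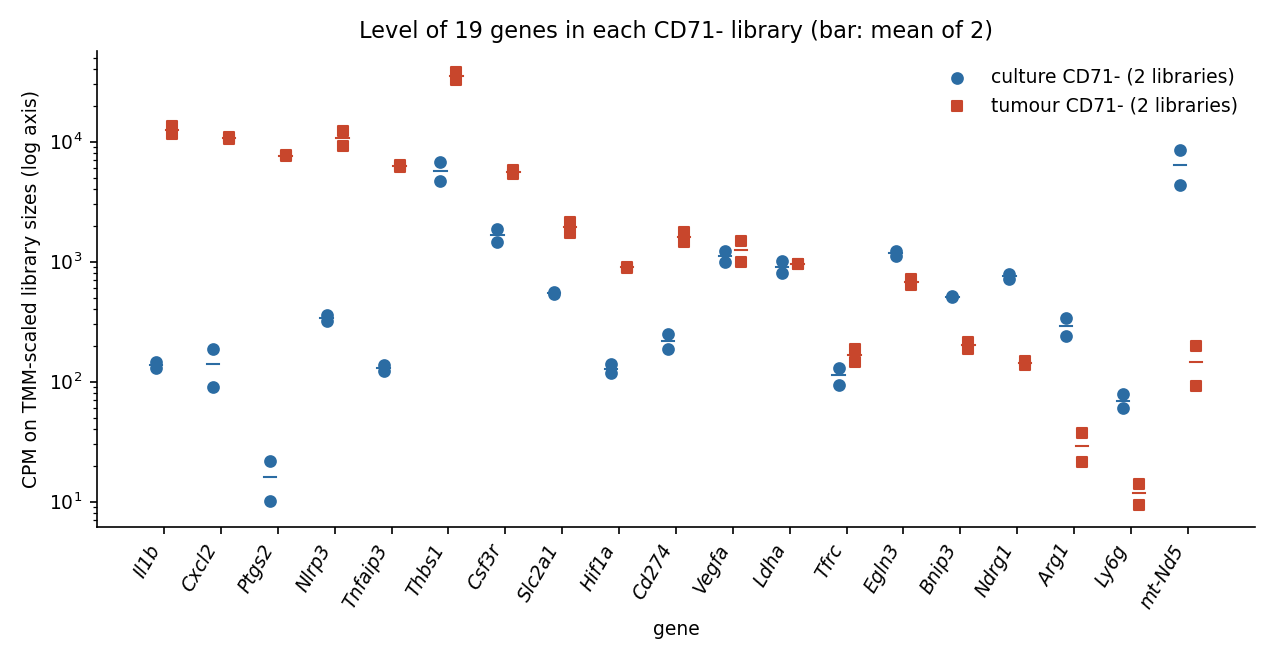
Level of 19 genes in each CD71- library, in CPM on a log axis, with circles for culture, squares for the tumour and a bar at each mean of 2 libraries. Il1b lies at 145 and 131 CPM in culture and 13484 and 11511 CPM in the tumour, Vegfa and Ldha overlap between the groups, and Arg1, Ly6g and mt-Nd5 lie lower in the tumour.

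Genes of acute inflammation stood higher in tumour CD71- neutrophils. Il1b (ENSMUSG00000027398.13, chromosome 2, 129364570 to 129371139), which encodes the cytokine interleukin 1 beta, stood at 145 and 131 CPM in culture and 13484 and 11511 CPM in the tumour, a log2 rise of 6.50 (SE 0.23, adjusted p = 7.22e-11). Both tumour libraries held far more of it than both culture libraries. Of 19 tested cytokine genes, 16 passed as higher and 1 as lower (12 and 0 under all 4 scalings), with a median log2 fold change of 2.48, beside 30.3% higher and 36.8% lower among all genes. Il1a, the other secreted agonist of the interleukin 1 receptor, went from 16.4 and 11 to 1368 and 1439 CPM, and Tnf, which encodes tumour necrosis factor, from 21.8 and 23.9 to 656 and 592 CPM. Osm, the gene of oncostatin M, rose by 5.20 log2 units (SE 0.21). Il23a, the specific subunit of interleukin 23, was near the floor in culture at 0.296 and 0 CPM and stood at 148 and 176 CPM in the tumour. Csf3, the gene of granulocyte colony-stimulating factor, had 0 counts in both culture libraries and 45.9 and 33.6 CPM in the tumour, at least 176-fold higher against 3 counts per library. Il1rn, whose product blocks the interleukin 1 receptor, also rose, from 419 and 408 to 4114 and 4101 CPM. Ebi3, a shared subunit of interleukins 27 and 35, was the 1 member lower, with a log2 value of −0.58 (SE 0.24, adjusted p = 0.0421), and it missed the threshold with DESeq2 size factors (adjusted p = 0.236) and without culture CD71- library 2 (0.257), tumour CD71- library 1 (0.583), tumour CD71- library 2 (0.0825), culture CD71+ library 1 (0.0601), culture CD71+ library 2 (0.0576) or tumour CD71+ library 2 (0.151). Exons of Il1a and Ebi3 overlap genes on the opposite strand over 11.2% and 23.4% of their length. The strand setting of the counting is not given in the sources used here, so their counts are uncertain.

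Chemokine genes moved in the same direction. Of 19 tested members 14 passed as higher and 1 as lower (11 and 0 under all 4 scalings). The median log2 fold change was 5.89, or 2.77 with the 7 members that had a group at 0 counts set to their bound. Cxcl2, a ligand of the neutrophil receptor CXCR2, went from 188 and 90.1 to 10583 and 11034 CPM (log2 fold change 6.28, SE 0.34, adjusted p = 4.99e-09). Cxcl3, a ligand of the same receptor, rose from 69.6 and 31.5 to 3038 and 2972 CPM. Cxcl1, the third of these ligands measured, had 0 counts in both culture libraries and 80.7 and 106 CPM in the tumour, at least 414-fold higher. The receptor gene Cxcr2 itself stood at 736 and 504 CPM in culture and 1271 and 1669 CPM in the tumour. It passed as higher with TMM (log2 1.25), but its value was 0.32 with total counts (adjusted p = 0.201) and −0.073 with the mature neutrophil scaling. Ccl3 and Ccl4, which attract monocytes and T cells, rose by 6.09 log2 units (SE 0.24) and 7.41 log2 units (SE 0.26). Ccl4 reached 1420 and 1625 CPM from 9.31 and 8.53 CPM. These 2 genes have near copies in the mouse genome, so the split of reads between them is uncertain. Cxcl16 rose from 0.771 and 0.545 to 32.6 and 31.6 CPM. Ccl22, a ligand of CCR4, was the member that passed as lower, with 1.3 and 3.18 CPM in culture and 0 and 0.139 CPM in the tumour, and it did not pass with DESeq2 size factors (adjusted p = 0.0541). Of 12 chemokine receptor genes, 10 passed as higher and 1 as lower (6 and 1 under all 4 scalings). Ccrl2, which presents the chemoattractant chemerin, rose by 7.47 log2 units (SE 0.26) to 2300 and 2433 CPM, Ccr1 by 2.83 log2 units (SE 0.21) and Cxcr4, the receptor that holds neutrophils in the marrow, by 2.02 log2 units (SE 0.19).

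Feedback genes of NF-kB, the transcription factor downstream of interleukin 1, TNF and Toll-like receptors, were higher in the tumour. Among 17 tested members 16 passed as higher and 1 as lower (14 and 0 under all 4 scalings), with a median log2 fold change of 3.21. Nfkbia, which encodes the inhibitor that holds NF-kB in the cytoplasm, rose from 241 and 307 to 5815 and 5432 CPM. Tnfaip3, the gene of the deubiquitinase A20, went from 137 and 123 to 6384 and 6202 CPM (log2 fold change 5.60, SE 0.20, adjusted p = 8.06e-11), and Nfkbiz, a nuclear inhibitor-like cofactor, rose by 5.94 log2 units (SE 0.22). The precursor genes Nfkb1 and Nfkb2 rose by 3.34 log2 units (SE 0.18) and 3.15 log2 units (SE 0.25), though 18.1% of Nfkb2 exons overlap genes on the opposite strand. Tnip3 was lower with TMM (log2 −0.90), a call that was lost with DESeq2 size factors (adjusted p = 0.0808).

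Immediate early genes, whose short-lived transcripts appear within minutes of a stimulus, stood far higher in the tumour libraries. Of 20 tested, 19 passed as higher and 0 as lower (14 and 0 under all 4 scalings), and the median was 4.28. Fos rose from 22.8 and 26.9 to 1770 and 1597 CPM, Egr1 from 59.8 and 73.9 to 3328 and 3108 CPM, and Dusp1, a phosphatase that ends MAP kinase signals, from 42.9 and 32.5 to 5704 and 5597 CPM. Fosb, near 1 CPM or less in culture at 0.593 and 0.726 CPM, reached 717 and 584 CPM. Nr4a1 and Nr4a3, orphan nuclear receptors, rose by 8.91 log2 units (SE 0.33) and 8.34 log2 units (SE 0.24). Ier2 did not pass (log2 1.84, adjusted p = 0.117), and its culture libraries lay apart at 19.6 and 84.2 CPM. Such transcripts are also known to respond to tissue dissociation, and origin and preparation cannot be told apart here.

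Cytosolic heat shock genes split by paralog. Of 13 members 8 passed as higher and 3 as lower (8 and 2 under all 4 scalings). Hspa1a, the inducible HSP70, was at 0.0593 and 0.272 CPM in culture and 249 and 184 CPM in the tumour, and its near-identical copy Hspa1b at 0.356 and 0.0908 CPM in culture and 192 and 133 CPM in the tumour. The split of reads between these copies is uncertain, and Hspa1a exons overlap a gene on the opposite strand over 19%. Hsp90aa1, the inducible form of HSP90, rose by 3.21 log2 units (SE 0.19), while Hsp90ab1, the constitutive form, fell by 1.48 log2 units from 310.5 and 364 to 135 and 107 CPM. Hsf1, the transcription factor of this response, was lower at −1.17 log2 units (SE 0.20).

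Genes of the type I interferon response, which cells switch on when they sense nucleic acids or interferon itself, rose almost without exception. Of 30 tested genes, 29 passed as higher and 0 as lower (27 and 0 under all 4 scalings), with a median log2 fold change of 4.26. Rsad2 (ENSMUSG00000020641.16, chromosome 12, 26442746 to 26456452), which encodes the antiviral enzyme viperin, stood at 1.78 and 1.91 CPM in culture and 1566 and 1566 CPM in the tumour (log2 fold change 9.73, SE 0.24, adjusted p = 1.16e-11). Isg15, a ubiquitin-like modifier, rose from 2.31 and 2.27 to 203 and 207 CPM and Oasl1 from 0.771 and 0.635 to 290.5 and 259 CPM. Ifit3 rose from 0.178 and 0.545 to 121 and 181 CPM, but its near copy Ifit3b makes the split of reads uncertain. Cxcl10, a chemokine induced by interferons, rose from 1.66 and 1.36 to 88.1 and 121 CPM. The transcription factors of the pathway named here moved less, with Stat2 at 2.38 log2 units (SE 0.17), Irf9 at 3.16 log2 units (SE 0.17) and Irf7 at 2.94 log2 units (SE 0.24). Mx1 and Bst2 passed with TMM at 1.61 and 1.11 log2 units but not under all 4 scalings, with adjusted p of 0.175 and 0.579 on total counts, and Bst2 turned to −0.22 with the mature neutrophil scaling. Ifi44, the 1 member that did not pass, had at most 1 count in any of the 4 libraries.

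Genes of antigen presentation did not share a direction, with falls among the invariant chain and peptide loading genes of class II. The classical class I heavy chains H2-K1 and H2-D1 rose by 2.51 log2 units (SE 0.18) and 1.93 log2 units (SE 0.17), and Nlrc5, the activator of class I genes, went from 7.29 and 7.9 to 346 and 264 CPM. The H2 genes resemble each other in sequence, so their separate values are uncertain. B2m, their shared light chain, passed as higher with TMM (log2 0.86) but had a value of −0.06 with total counts and passed as lower scaled on mature neutrophil genes (log2 −0.50). In class II, the chains H2-Aa and H2-Eb1 rose by 2.85 log2 units (SE 0.49) and 4.05 log2 units (SE 0.26), whereas the invariant chain gene Cd74 fell by 1.57 log2 units from 236 and 338 to 100.4 and 93.7 CPM and the peptide loading genes H2-DMa and H2-DMb1 were lower at −1.54 log2 units (SE 0.27) and −1.35 log2 units (SE 0.37). The costimulatory genes Cd80 and Cd86 rose, Cd80 from 41 and 26.9 to 1478 and 1184 CPM. Over the 19 members 11 passed as higher and 4 as lower (7 and 3 under all 4 scalings), and the median of 0.86 turned to −0.058 with total counts and −0.49 with the mature neutrophil scaling.

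Receptors by which neutrophils sense microbes and damage were mostly higher. Of 26 pattern recognition genes 20 passed as higher and 3 as lower (13 and 3 under all 4 scalings), with a median log2 fold change of 1.93. Nlrp3, the sensor of the inflammasome that matures interleukin 1 beta, rose from 363 and 319 to 12232 and 9238 CPM (log2 fold change 4.98, SE 0.22, adjusted p = 4.23e-10). Cd14, the co-receptor for lipopolysaccharide, went from 159 and 190.5 to 5071 and 4782 CPM and Tlr1, a partner of TLR2, from 1.19 and 1.09 to 82.8 and 79.8 CPM. Tlr2 and Tlr4 rose by 2.40 log2 units (SE 0.18) and 2.24 log2 units (SE 0.20). Trem1, which amplifies inflammatory signals, rose by 5.03 log2 units (SE 0.23) and Clec4e, the receptor Mincle, by 4.71 log2 units (SE 0.24). Trem2, a lipid-sensing receptor of macrophages, fell from 21.1 and 36.1 to 7.27 and 11.2 CPM.

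Phagocyte oxidase and Fc receptor genes did not move as a block. Ncf1, a cytosolic oxidase subunit, rose by 2.05 log2 units (SE 0.18), while Cybb, the catalytic membrane subunit, fell from 273 and 213 to 91.7 and 115 CPM (log2 fold change −1.24, SE 0.19, adjusted p = 7.01e-05). Of the Fc gamma receptors, the activating Fcgr4 and Fcgr3 rose by 3.47 log2 units (SE 0.24) and 2.49 log2 units (SE 0.22), and the inhibitory Fcgr2b fell from 632 and 532 to 187 and 194 CPM. Across the 12 members 7 passed as higher and 2 as lower (3 and 2 under all 4 scalings), and the median turned from 0.75 to −0.18 with total counts and −0.60 with the mature neutrophil scaling. Of 16 adhesion genes 13 passed as higher and 0 as lower (6 and 0 under all 4 scalings). Cd44, a hyaluronan receptor, rose from 704 and 525 to 5814 and 5831 CPM, Itga4 by 3.35 log2 units (SE 0.19), Icam1 by 3.0 log2 units (SE 0.18) and Itgax, the CD11c chain, by 3.61 log2 units (SE 0.27). That list's median of 1.30 turned to −0.033 under the mature neutrophil scaling.

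Genes that define neutrophils were present in both groups, most of them at higher levels in the tumour with TMM, though Ly6g was lower there. S100a8 and S100a9, the abundant calprotectin subunits, overlapped between the groups, S100a8 at 1081 and 1566 CPM in culture and 1024 and 1296 CPM in the tumour and S100a9 at 1124 and 1565 CPM in culture and 1531 and 1701 CPM in the tumour. With TMM neither passed (adjusted p = 0.432 and 0.246). S100a8 passed as lower with total counts (log2 −1.10) and with the mature neutrophil scaling (log2 −1.56). S100a9 turned from 0.27 to −0.65 and −1.10 there, and passed as higher with DESeq2 size factors (log2 0.51, adjusted p = 0.0348) and without culture CD71- library 2 (0.0267). Csf3r, the receptor of granulocyte colony-stimulating factor, was at 1877 and 1449 CPM in culture and 5788 and 5340 CPM in the tumour (log2 fold change 1.74, SE 0.19, adjusted p = 2.2e-06), and missed the threshold with the mature neutrophil scaling (adjusted p = 0.069). Ly6g (ENSMUSG00000022582.4, chromosome 15, 75155240 to 75159126), the antigen by which mouse neutrophils are often sorted, was low in culture at 78.3 and 60.3 CPM and lower in the tumour at 9.37 and 14.2 CPM, a log2 value of −2.56 (SE 0.28, adjusted p = 2.89e-06). Of 25 mature neutrophil genes 18 passed as higher and 3 as lower (9 and 3 under all 4 scalings), with a median log2 fold change of 1.32. That median was 0.38 with total counts and, by construction of that scaling, near 0 when scaled on the list itself. The calls of the 25 genes under that scaling, 9 higher and 9 lower, are likewise no separate check on them. This holds for Csf3r, S100a8, S100a9 and every other member, and for the count under all 4 scalings. With TMM the summed level of the 25 genes was 10662 and 10140 CPM in culture and 36824 and 39473 CPM in the tumour. Within the list G0s2, an inhibitor of the lipase ATGL, went from 4.03 and 5.81 to 1362 and 1227 CPM, Mxd1, a MYC antagonist of differentiating cells, rose by 3.46 log2 units (SE 0.19), and Padi4, the enzyme that citrullinates histones in extracellular traps, fell by 1.47 log2 units from 233 and 312 to 119.7 and 76.6 CPM. In bulk libraries fewer cells of a type and less RNA per cell cannot be told apart, which holds for every list.

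Granule genes had no shared direction. Of 15 secondary and tertiary granule genes 8 passed as higher and 4 as lower (3 and 2 under all 4 scalings), and the median turned from 0.69 to −0.24 with total counts and −0.62 with the mature neutrophil scaling. Ngp, neutrophilic granule protein, stood at 508 and 676 CPM in culture and 18.9 and 93 CPM in the tumour, and the tumour libraries lay far apart. Its fall of 3.40 log2 units (adjusted p = 0.0298) did not pass without culture CD71- library 1 (0.0669), culture CD71- library 2 (0.0882), culture CD71+ library 1 (0.0717) or culture CD71+ library 2 (0.072). Mmp8, neutrophil collagenase, also had tumour libraries far apart, at 1532 and 1109 CPM in culture and 165 and 954 CPM in the tumour, and did not pass (adjusted p = 0.331). Camp, the cathelicidin gene, was at 5.46 and 15.1 CPM in culture and 1.54 and 2.77 CPM in the tumour (log2 −2.23, adjusted p = 0.00694), and missed without culture CD71- library 2 (0.0683) or tumour CD71- library 1 (0.102). Ltf, lactoferrin, overlapped between the groups at 83 and 124 CPM in culture and 64.6 and 84.7 CPM in the tumour, and passed as lower with total counts (log2 −1.38) and with the mature neutrophil scaling (log2 −1.84). Olfm4, Mmp25 and Hp rose by 2.56 log2 units (SE 0.22), 2.30 log2 units (SE 0.22) and 2.10 log2 units (SE 0.18). Mmp9, gelatinase B, passed with TMM (log2 0.99) but turned to −0.36 with the mature neutrophil scaling. Of 10 primary granule and progenitor genes 4 passed as higher and 4 as lower (0 and 4 under all 4 scalings). Mpo, myeloperoxidase, was low in both groups at 0 and 0.817 CPM in culture and 2.52 and 2.22 CPM in the tumour, and its call as higher was lost with total counts (adjusted p = 0.114), with the mature neutrophil scaling (0.257), and without culture CD71- library 1 (adjusted p = 0.134), tumour CD71- library 1 (0.0923) or tumour CD71- library 2 (0.0762). Cebpe, a transcription factor of granule formation, fell by 3.08 log2 units (adjusted p = 0.00377, and 0.0503 without tumour CD71- library 2), and Kit, the stem cell factor receptor, fell by 2.83 log2 units from 66.5 and 40.5 to 5.87 and 9.16 CPM.

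Transcription factor genes of the myeloid lineage were mostly higher. Of 18 transcription factor genes 13 passed as higher and 3 as lower (6 and 3 under all 4 scalings). Cebpb, which drives emergency granulopoiesis, rose from 107 and 151 to 1358 and 1245 CPM, though 20.7% of its exons overlap a gene on the opposite strand. Klf2, Klf6 and Irf8 rose by 3.11 log2 units (SE 0.29), 2.67 log2 units (SE 0.18) and 3.22 log2 units (SE 0.32). Maf, a factor of macrophages, fell from 108 and 92.7 to 11.3 and 11.8 CPM. Among 17 genes of colony-stimulating factor receptors and their feedback, 10 passed as higher and 3 as lower (6 and 3 under all 4 scalings). Socs3, the feedback inhibitor of G-CSF and interleukin 6 signals, rose from 141 and 236 to 3205 and 2474 CPM, Pim1 by 3.44 log2 units (SE 0.20) and Csf2rb, the beta chain of the GM-CSF receptor, by 2.09 log2 units (SE 0.20). Socs2 went the other way, from 17.9 and 15.3 to 0.839 and 0.416 CPM, and Csf1r, the receptor of the macrophage growth factor, fell by 1.12 log2 units from 527 and 566 to 266 and 238 CPM.

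Most markers of suppressive and tumour-associated neutrophils were higher, while Arg1 was lower. Of 23 tested, 17 passed as higher and 2 as lower (10 and 2 under all 4 scalings), with a median log2 fold change of 1.6. Ptgs2 (ENSMUSG00000032487.8, chromosome 1, 150100031 to 150108227), the inducible cyclooxygenase of prostaglandin synthesis, stood at 21.9 and 10.2 CPM in culture and 7531 and 7778 CPM in the tumour (log2 fold change 8.88, SE 0.39, adjusted p = 1.44e-09). Cd274 (ENSMUSG00000016496.7, chromosome 19, 29367455 to 29388095), which encodes the checkpoint ligand PD-L1, went from 250.3 and 187 to 1775 and 1464 CPM (log2 fold change 2.89, SE 0.20, adjusted p = 2.47e-08), with 14.1% of its exons overlapping a gene on the opposite strand. Olr1, the scavenger receptor LOX-1, rose by 3.97 log2 units (SE 0.21) and Entpd1, the ectoenzyme CD39 that degrades ATP, from 74.7 and 63.4 to 3014 and 2754 CPM. Tnfrsf10b, a death receptor, was at 3.2 and 2.9 CPM in culture and 8.39 and 7.63 CPM in the tumour and passed with TMM (log2 1.39) but not with total counts (adjusted p = 0.256). Cd84 passed as higher with TMM (log2 0.63) and turned to −0.31 with total counts. It missed the threshold without culture CD71- library 2 (adjusted p = 0.227) or tumour CD71- library 1 (0.0818). Arg1 (ENSMUSG00000019987.9, chromosome 10, 24915221 to 24927484), the enzyme that splits arginine into urea and ornithine, fell from 242 and 338 CPM to 37.3 and 21.4 CPM (log2 fold change −3.30, SE 0.27, adjusted p = 2.61e-07), with no overlap between the groups.

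The arginase isoforms moved in opposite directions. Arg2, the mitochondrial isoform, rose from 99.5 and 72.3 to 1206 and 1173 CPM (log2 fold change 3.79, SE 0.21, adjusted p = 2.21e-09). Exons of Arg2 overlap genes on the opposite strand over 28.1%. The uptake transporter Slc7a2 fell from 108 and 103 to 3.5 and 2.64 CPM and Ass1, which rebuilds arginine from citrulline, from 35.8 and 57.3 to 4.75 and 1.94 CPM. Odc1, the enzyme that makes putrescine from ornithine, rose from 33.4 and 41.1 to 357 and 276 CPM, its stabiliser Azin1 by 2.65 log2 units (SE 0.16) and the polyamine acetylase Sat1 by 2.47 log2 units (SE 0.18). Srm and Sms, the spermidine and spermine synthases, fell by 2.30 and 1.05 log2 units. Over 15 members 8 passed as higher and 5 as lower (5 and 5 under all 4 scalings). In prostaglandin and leukotriene synthesis, Ptgs1, the constitutive cyclooxygenase, fell from 284 and 275 to 58.9 and 50.2 CPM while Ptgs2 rose. Alox5 and Lta4h, enzymes of leukotriene B4 synthesis, fell by 0.96 and 1.49 log2 units, and the thromboxane synthase gene Tbxas1 fell by 2.27 log2 units. Of these 17 genes 8 passed as higher and 5 as lower (3 and 5 under all 4 scalings).

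The title of the series names hypoxia, so hypoxia genes were read in 2 lists, glycolysis and the remainder. Hif1a (ENSMUSG00000021109.13, chromosome 12, 73901375 to 73947530), the oxygen-regulated subunit of HIF-1, rose from 139 and 118 to 892 and 909 CPM (log2 fold change 2.81, SE 0.18, adjusted p = 1.05e-08). HIF-1 is regulated mainly at the protein level, which was not measured here. Genes of the hypoxia list outside glycolysis did not move together. That list holds Hif1a itself and other HIF subunits and regulators beside targets, so its counts are not counts of targets alone. Of 32 hypoxia genes outside glycolysis, 9 passed as higher and 16 as lower (5 and 14 under all 4 scalings), with a median log2 fold change of −0.53, beside −0.28 over all genes. Plaur, the urokinase receptor, rose from 102 and 114 to 3859 and 2833 CPM and Hilpda, a lipid droplet protein induced by hypoxia, from 55.2 and 60 to 860.4 and 688 CPM. Vegfa, at 994 and 1226 CPM in culture and 1477 and 1002 CPM in the tumour, did not pass with TMM (log2 fold change 0.16, SE 0.22, adjusted p = 0.531), and its value turned to −0.77 with total counts, where it passed as lower (adjusted p = 0.00302). Several standard hypoxia markers were higher in culture. Bnip3 and Bnip3l, which mark mitochondria for removal, fell by 1.34 and 1.25 log2 units, Bnip3 from 516 and 504 to 188 and 214 CPM. Ndrg1 went from 784 and 722 to 149 and 138 CPM and Ankrd37 from 81.1 and 67.7 to 20.8 and 21.1 CPM. Of the oxygen-sensing prolyl hydroxylases that HIF itself induces, Egln1 fell from 233 and 285 to 35.8 and 33.4 CPM and Egln3 from 1232 and 1120 to 711 and 634 CPM (log2 −0.81, adjusted p = 0.00138, and 0.0508 without tumour CD71- library 2). Hif3a, a HIF subunit that also follows hypoxia, fell from 95.7 and 84.6 to 0.699 and 0.139 CPM. Exons of Bnip3 overlap a gene on the opposite strand over 22.2%.

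Within glycolysis, the transporter genes Slc2a1 and Slc16a3 and the regulator gene Pfkfb3 rose with TMM, while several core enzymes and the regulator gene Pdk1 fell. Of 28 genes 11 passed as higher and 10 as lower (1 and 8 under all 4 scalings), with a median log2 fold change of 0.028 that was −0.90 with total counts and −1.32 with the mature neutrophil scaling. Among all genes 30.3% were higher and 36.8% lower, and 14.6% and 31.2% under all 4 scalings. Slc2a1 (ENSMUSG00000028645.11, chromosome 4, 119108711 to 119137983), the glucose transporter GLUT1, went from 542 and 558 to 2153 and 1741 CPM (log2 fold change 1.82, SE 0.21, adjusted p = 4.07e-06), and Slc16a3, the lactate exporter MCT4, from 338 and 532 to 1872 and 1738 CPM (log2 fold change 2.05, SE 0.26, adjusted p = 1.22e-05). These 2 calls held with TMM, DESeq2 size factors and total counts but not with the mature neutrophil scaling (adjusted p = 0.0619 and 0.0573). Pfkfb3, which makes the activator of phosphofructokinase, rose from 330.4 and 304 to 1812 and 1531 CPM and was the 1 stable rise of the list. Slc2a3, the glucose transporter GLUT3, overlapped between the groups at 1863 and 1088 CPM in culture and 1355 and 1410 CPM in the tumour. It did not pass with TMM (log2 −0.094, adjusted p = 0.724) and passed as lower with total counts (log2 −1.03) and with the mature neutrophil scaling (log2 −1.39). Ldha, at 799 and 1004 CPM in culture and 962 and 954 CPM in the tumour, did not pass with TMM (adjusted p = 0.694) and turned from 0.088 to −0.83 with total counts. The core enzymes Gapdh, Aldoa, Pgk1, Gpi1 and Tpi1 fell by 1.6, 1.54, 1.32, 2.23 and 1.09 log2 units, all stable. Culture levels of Gapdh lay apart at 1713 and 3197 CPM, against 848 and 770.1 CPM in the tumour. Aldoc, the brain-type aldolase, fell from 114 and 158 to 1.68 and 2.36 CPM, and Pdk1, which closes pyruvate dehydrogenase, from 309 and 263 to 57.3 and 52.5 CPM.

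**Figure D2:**
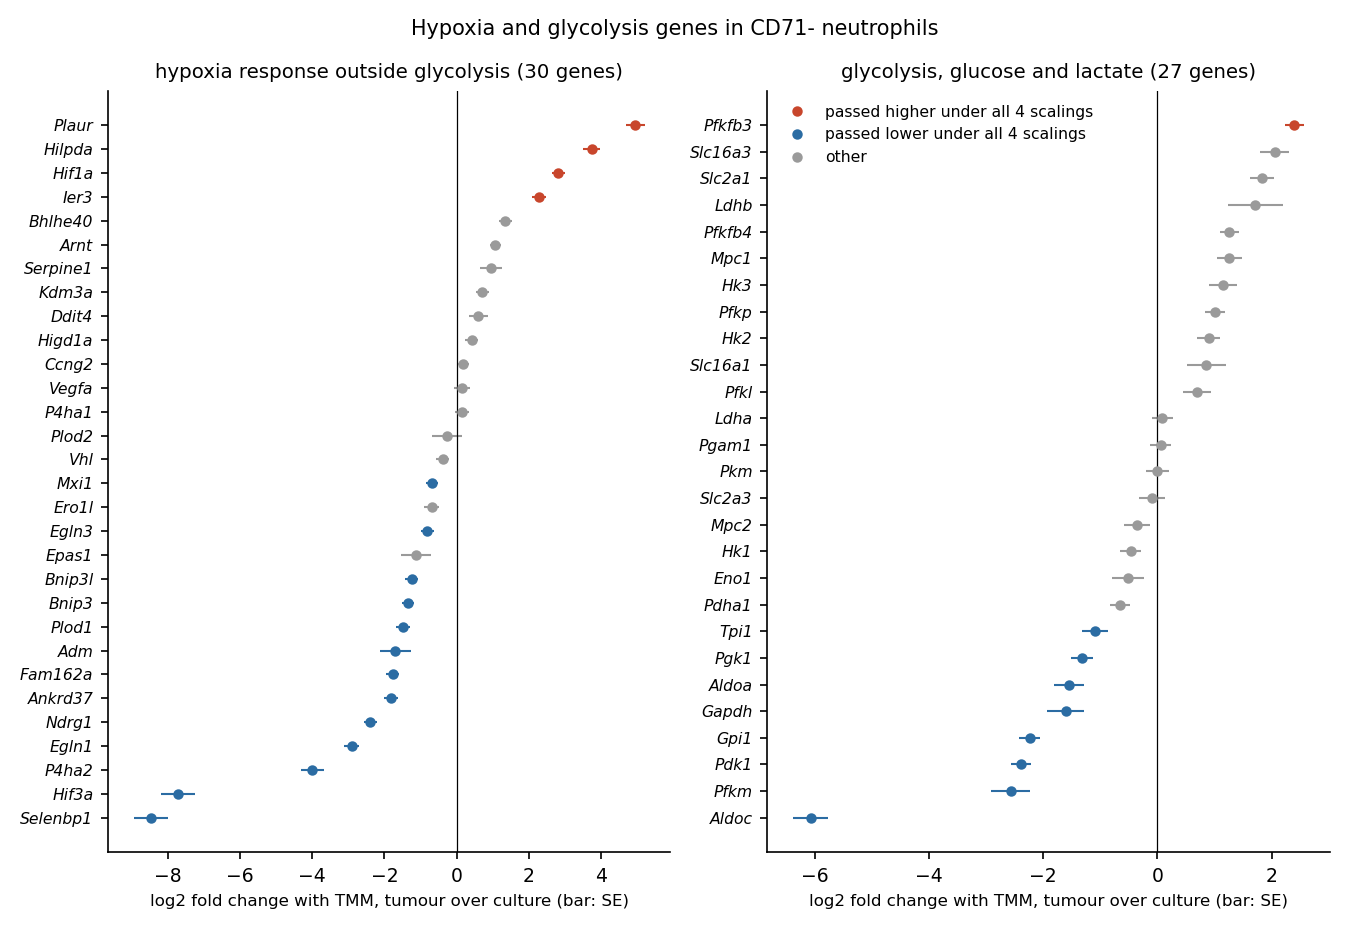
Log2 fold change with its SE for 30 hypoxia genes outside glycolysis (left) and 27 glycolysis genes (right) with more than 3 counts in each CD71- group, with colour for genes that passed in the same direction under all 4 scalings. Plaur at 4.95, Hilpda at 3.75 and Hif1a at 2.81 lie at the top of the left panel, and Ndrg1 at −2.39, Pdk1 at −2.38 and Aldoc at −6.07 in the lower parts.

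HIF binds a short core in DNA, searched here only in the form ACGTG, which can be read on either strand (as CACGT on the other). Promoters from 250 bases before to 50 bases after the gene start, from RefSeq on GRCm38.p6, were matched for 51 of the 60 genes of the 2 lists. The core was found in 24 of the 51 (47.1%), against 19.6% of 32851 promoters of the same length. It stood in 8 of 17 promoters of genes that were higher, 11 of 22 of genes that were lower and 5 of 12 of genes that did not pass. A match is a description of letters and not a binding site. The 6 promoters printed here carry the core and belong to 3 genes higher and 3 genes lower in the tumour libraries. Capitals mark the core on either strand, and where the letters CACGTG occur both readings overlap.
Pfkfb3 (chr2:11553880-11554179, minus strand), Slc2a1 (chr4:119108495-119108794, plus strand) and Slc16a3 (chr11:120948817-120949116, plus strand) were higher.
Pfkfb3: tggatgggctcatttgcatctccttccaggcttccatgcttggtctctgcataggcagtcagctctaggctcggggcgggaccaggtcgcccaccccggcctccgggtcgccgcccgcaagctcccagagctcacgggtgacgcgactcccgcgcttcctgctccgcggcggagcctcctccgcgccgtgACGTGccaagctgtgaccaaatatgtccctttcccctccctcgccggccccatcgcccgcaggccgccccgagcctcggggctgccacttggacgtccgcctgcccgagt
Slc2a1: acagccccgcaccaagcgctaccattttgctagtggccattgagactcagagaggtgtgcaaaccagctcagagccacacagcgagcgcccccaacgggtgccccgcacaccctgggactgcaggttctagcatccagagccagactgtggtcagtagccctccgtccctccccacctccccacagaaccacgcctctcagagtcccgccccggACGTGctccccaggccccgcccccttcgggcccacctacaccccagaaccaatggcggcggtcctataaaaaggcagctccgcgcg
Slc16a3: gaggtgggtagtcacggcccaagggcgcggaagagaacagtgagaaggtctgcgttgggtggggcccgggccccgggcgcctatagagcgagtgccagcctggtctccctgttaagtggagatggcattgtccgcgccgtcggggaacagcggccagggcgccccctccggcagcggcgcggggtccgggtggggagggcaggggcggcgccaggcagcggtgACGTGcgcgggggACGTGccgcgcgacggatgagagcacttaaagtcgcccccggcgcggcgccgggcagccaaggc
Bnip3 (chr7:138909457-138909756, minus strand), Egln3 (chr12:54203825-54204124, minus strand) and Pgk1 (chrX:106186850-106187149, plus strand) were lower.
Bnip3: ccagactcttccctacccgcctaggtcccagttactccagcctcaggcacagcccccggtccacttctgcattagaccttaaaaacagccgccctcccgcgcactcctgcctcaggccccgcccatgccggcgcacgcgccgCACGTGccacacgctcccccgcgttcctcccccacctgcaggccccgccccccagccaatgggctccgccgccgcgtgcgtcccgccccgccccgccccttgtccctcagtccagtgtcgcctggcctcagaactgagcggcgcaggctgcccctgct
Egln3: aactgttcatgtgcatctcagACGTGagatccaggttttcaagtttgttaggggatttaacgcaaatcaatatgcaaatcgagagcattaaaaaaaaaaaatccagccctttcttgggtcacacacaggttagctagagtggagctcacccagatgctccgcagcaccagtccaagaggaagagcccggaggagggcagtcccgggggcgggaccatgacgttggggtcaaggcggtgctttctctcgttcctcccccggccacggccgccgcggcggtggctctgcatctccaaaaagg
Pgk1: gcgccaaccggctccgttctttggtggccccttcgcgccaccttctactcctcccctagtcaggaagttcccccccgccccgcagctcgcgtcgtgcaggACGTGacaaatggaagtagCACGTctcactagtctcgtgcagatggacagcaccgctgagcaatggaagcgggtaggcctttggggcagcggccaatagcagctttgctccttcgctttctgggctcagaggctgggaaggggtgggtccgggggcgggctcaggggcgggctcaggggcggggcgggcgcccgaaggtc

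The series title also names histone lactylation, the transfer of lactyl groups to histones, which acyltransferases write and deacylases remove. Of 20 genes of histone acylation 7 passed as higher and 9 as lower (3 and 9 under all 4 scalings), with a median log2 fold change of −0.33. Over all genes the median was −0.28, with 30.3% higher and 36.8% lower (14.6% and 31.2% under all 4 scalings). Ep300, the acyltransferase p300, stood at 573 and 472 CPM in culture and 358 and 452 CPM in the tumour and did not pass with TMM (log2 fold change −0.37, SE 0.18, adjusted p = 0.0791). It passed as lower with total counts (log2 −1.29), with the mature neutrophil scaling (log2 −1.70) and without culture CD71- library 2 (adjusted p = 0.0248). Its paralog Crebbp passed as higher with TMM (log2 1.06) but not with total counts (adjusted p = 0.479), and was −0.28 with the mature neutrophil scaling. Acly, which supplies acetyl-CoA from citrate, fell from 402 and 474 to 70.8 and 61.8 CPM. Kat2a, Kat7 and Kat8, further acetyltransferases, fell by 1.56, 0.97 and 1.35 log2 units, and the deacetylases Hdac2 and Hdac3 fell by 2.07 and 0.79 log2 units. Sirt1 and Sirt2, NAD-dependent deacylases, rose by 2.51 log2 units (SE 0.21) and 1.95 log2 units (SE 0.19), while Sirt3 fell by 1.09 log2 units. Aars, an alanyl-tRNA synthetase reported to transfer lactyl groups, rose from 11.9 and 18.5 to 82.5 and 84.8 CPM and its mitochondrial paralog Aars2 fell from 8.06 and 14.6 to 3.22 and 1.53 CPM. Lactylation itself was not measured in these libraries.

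Lipid handling separated storage and efflux from synthesis. Of 24 genes of lipid uptake and storage 17 passed as higher and 5 as lower (11 and 4 under all 4 scalings). Abca1, which exports cholesterol, rose from 77.6 and 54.9 to 2873 and 2452 CPM, Dgat1 and Dgat2, which make triglyceride, by 4.82 log2 units (SE 0.22) and 4.75 log2 units (SE 0.24), and Plin2, a coat protein of lipid droplets, by 3.46 log2 units (SE 0.18). Lpl, lipoprotein lipase, fell from 39.3 and 44 to 2.1 and 1.25 CPM and Pparg from 34.3 and 29.2 to 1.96 and 2.36 CPM. Of 25 genes of cholesterol and fatty acid synthesis 5 passed as higher and 14 as lower (3 and 12 under all 4 scalings). Sqle, which oxidises squalene, and the desaturase gene Scd2 fell by 2.94 and 4.34 log2 units, Sqle from 18.7 and 16.7 to 2.66 and 1.94 CPM. Fasn fell by 1.25 log2 units with TMM (adjusted p = 0.0234) but missed the threshold with DESeq2 size factors (0.0535), without culture CD71- library 2 (0.151) and without tumour CD71- library 2 (0.211).

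Genes of amino acid stress and the unfolded protein response were mostly higher. Of 25 tested, 16 passed as higher and 3 as lower (13 and 1 under all 4 scalings), with a median log2 fold change of 2.06. Pdia4 was the 1 stable fall, from 32.1 and 27.7 to 10.5 and 9.44 CPM. Slc7a11, the cystine importer, went from 87.3 and 68.8 to 6063 and 6105 CPM (log2 fold change 6.28, SE 0.22, adjusted p = 7.22e-11). Hspa5, the endoplasmic reticulum chaperone BiP, rose by 4.57 log2 units (SE 0.21), Ddit3, the stress factor CHOP, by 3.83 log2 units (SE 0.20) and Ppp1r15a, which reverses the block of translation, by 5.18 log2 units (SE 0.25). Asns, a classical ATF4 target, passed with TMM (log2 1.10) but not with total counts (adjusted p = 0.578), and was −0.23 with the mature neutrophil scaling. Among 20 antioxidant genes 11 passed as higher and 7 as lower (7 and 7 under all 4 scalings). Nfe2l2, which encodes NRF2, rose by 3.01 log2 units (SE 0.18), with Txnrd1 at 4.77 log2 units (SE 0.23) and Hmox1 at 2.79 log2 units (SE 0.18), whereas Cat, catalase, fell from 61.6 and 69.7 to 3.77 and 2.5 CPM and Gclm, Gpx4 and Prdx1 fell by 1.68, 1.71 and 2.09 log2 units. Of 15 iron genes 11 passed as higher and 2 as lower (6 and 2 under all 4 scalings). Fth1, the ferritin heavy chain, rose from 1167 and 1442 to 7650 and 7016 CPM, Slc11a1, a metal transporter of phagosomes, by 4.94 log2 units (SE 0.31) and the iron exporter gene Slc40a1 by 1.92 log2 units (SE 0.18). Ireb2 and Aco1, which encode the iron regulatory proteins, fell by 1.18 and 1.90 log2 units.

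Genes for protein synthesis and respiration were lower as blocks. Of 77 cytosolic ribosomal protein genes 1 passed as higher and 56 as lower (0 and 46 under all 4 scalings), with a median log2 fold change of −1.23. Rpl22 fell from 68.3 and 79.2 to 7.55 and 9.85 CPM. Rpl10, the 1 member higher with TMM (log2 0.78), turned to −0.13 with total counts, and without culture CD71- library 1 its adjusted p was 0.148. Many ribosomal protein genes have processed copies, so their counts are uncertain. Of 75 nuclear-encoded respiratory chain genes 1 passed as higher and 59 as lower (1 and 48 under all 4 scalings), with a median log2 fold change of −1.26. Ndufv3, a subunit of complex I, fell from 59.6 and 81.2 to 5.31 and 6.8 CPM, and Ndufa12 of the same complex was the exception at 2.18 log2 units (SE 0.24). Of 24 mitochondrially encoded genes 0 passed as higher and 23 as lower (0 and 22 under all 4 scalings), with a median log2 fold change of −4.47, or −4.04 with 3 members at 0 set to their bound. mt-Nd5 went from 4336 and 8531 to 198 and 91.6 CPM and mt-Co1, of cytochrome oxidase, from 24956 and 47419 to 3399 and 1726 CPM. Libraries of the same group lay apart in both genes, yet the groups did not overlap. The share of mitochondrial counts is also a sign of RNA and sample quality, and its part in these results was not tested.

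Genes of Myc and ribosome biogenesis, of clustered histones and of the cell cycle passed as lower more often than as higher. In the cell cycle list the share of lower calls lay near that over all genes, and higher calls were fewer. Of 27 genes of Myc and ribosome biogenesis 3 passed as higher and 14 as lower (0 and 14 under all 4 scalings), with a median log2 fold change of −1.46. Myc fell from 15.1 and 30 to 6.01 and 2.08 CPM (log2 fold change −2.47, SE 0.43, adjusted p = 0.000329) and Npm1, nucleophosmin, from 119 and 130.2 to 18.6 and 19 CPM. Of 30 cell cycle genes 3 passed as higher and 10 as lower (0 and 8 under all 4 scalings), and 17 did not pass. The median of the cell cycle list was −0.84, beside −0.28 over all genes. Among all genes 30.3% were higher and 36.8% lower, and 14.6% and 31.2% under all 4 scalings. Mki67, the proliferation antigen Ki-67, fell from 73.1 and 68.5 to 34.2 and 28 CPM and Mcm6, of the replicative helicase, from 14.5 and 13.7 to 3.22 and 3.47 CPM. Top2a was at 7.83 and 16.8 CPM in culture and 5.59 and 6.38 CPM in the tumour (log2 −1.02, adjusted p = 0.0138). That call was lost with DESeq2 size factors (0.0549) and without culture CD71- library 2 (0.218), tumour CD71- library 1 (0.189), tumour CD71- library 2 (0.1) or tumour CD71+ library 2 (0.0535). Pcna, the polymerase clamp, went the other way at 1.70 log2 units (SE 0.22), a call that was lost with the mature neutrophil scaling (adjusted p = 0.242). The library method keeps transcripts without a poly(A) tail, so replication-dependent histone genes could be read. Of 35 clustered histone genes 1 passed as higher and 18 as lower (1 and 17 under all 4 scalings), with a median log2 fold change of −1.65. Hist1h1d and Hist1h1e, linker histones, fell from 114 and 252 to 8.11 and 5.97 CPM and from 135 and 143 to 14.3 and 13.6 CPM. These genes resemble each other in sequence, so single values are uncertain. Of 33 small nucleolar and Cajal body RNAs, 10 passed as higher and 10 as lower (5 and 8 under all 4 scalings), near the shares over all genes. Snord89 rose from 1.13 and 0.908 to 37.9 and 34.1 CPM and Snora23 fell from 51.5 and 115 to 22.6 and 8.19 CPM. Both lie inside host genes, whose reads the counting may share.

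**Figure D3:**
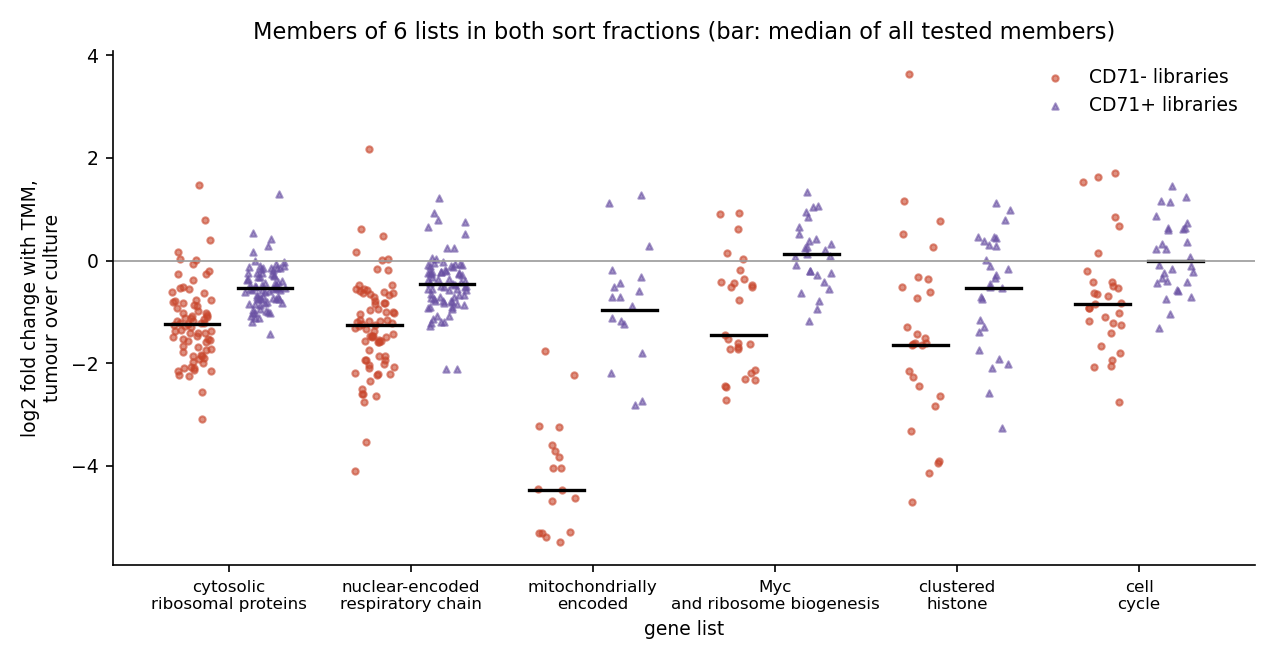
Log2 fold change of each member with more than 3 counts in each CD71- group, tumour over culture, for 6 lists in the CD71- libraries (circles) and the CD71+ libraries (triangles), with bars at the median of all tested members. The CD71- medians lie at −1.23, −1.26, −4.47, −1.46, −1.65 and −0.84, and the CD71+ medians at −0.53, −0.46, −0.97, 0.14, −0.53 and −0.013.

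Survival genes of both signs rose. Mcl1 and Bcl2l1, which keep neutrophils alive, went from 922 and 729.8 to 4797 and 4824 CPM and from 119.8 and 127 to 944 and 945 CPM. Bcl2l11 and Pmaip1, which oppose them, also rose, by 2.78 log2 units (SE 0.17) and 2.71 log2 units (SE 0.19). Of 19 members 11 passed as higher and 3 as lower (6 and 3 under all 4 scalings), and the median of 1.02 turned to −0.30 with the mature neutrophil scaling. Of 26 angiogenic and matrix genes 18 passed as higher and 4 as lower (10 and 4 under all 4 scalings). Thbs1, thrombospondin 1, stood at 6748 and 4697 CPM in culture and 37790 and 32916 CPM in the tumour (log2 fold change 2.63, SE 0.23, adjusted p = 2.6e-07). Spp1, osteopontin, rose from 82.7 and 74.3 to 670.4 and 729 CPM, Plau, urokinase, by 4.42 log2 units (SE 0.20) and Hbegf by 2.23 log2 units (SE 0.21). Spp1 shares 18.8% of its exon length with a gene on the same strand. Mmp13, a collagenase, fell from 78.8 and 45.7 to 3.77 and 2.36 CPM and Mmp12, macrophage elastase, from 29.7 and 32.6 to 5.31 and 4.44 CPM.

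**Figure D4:**
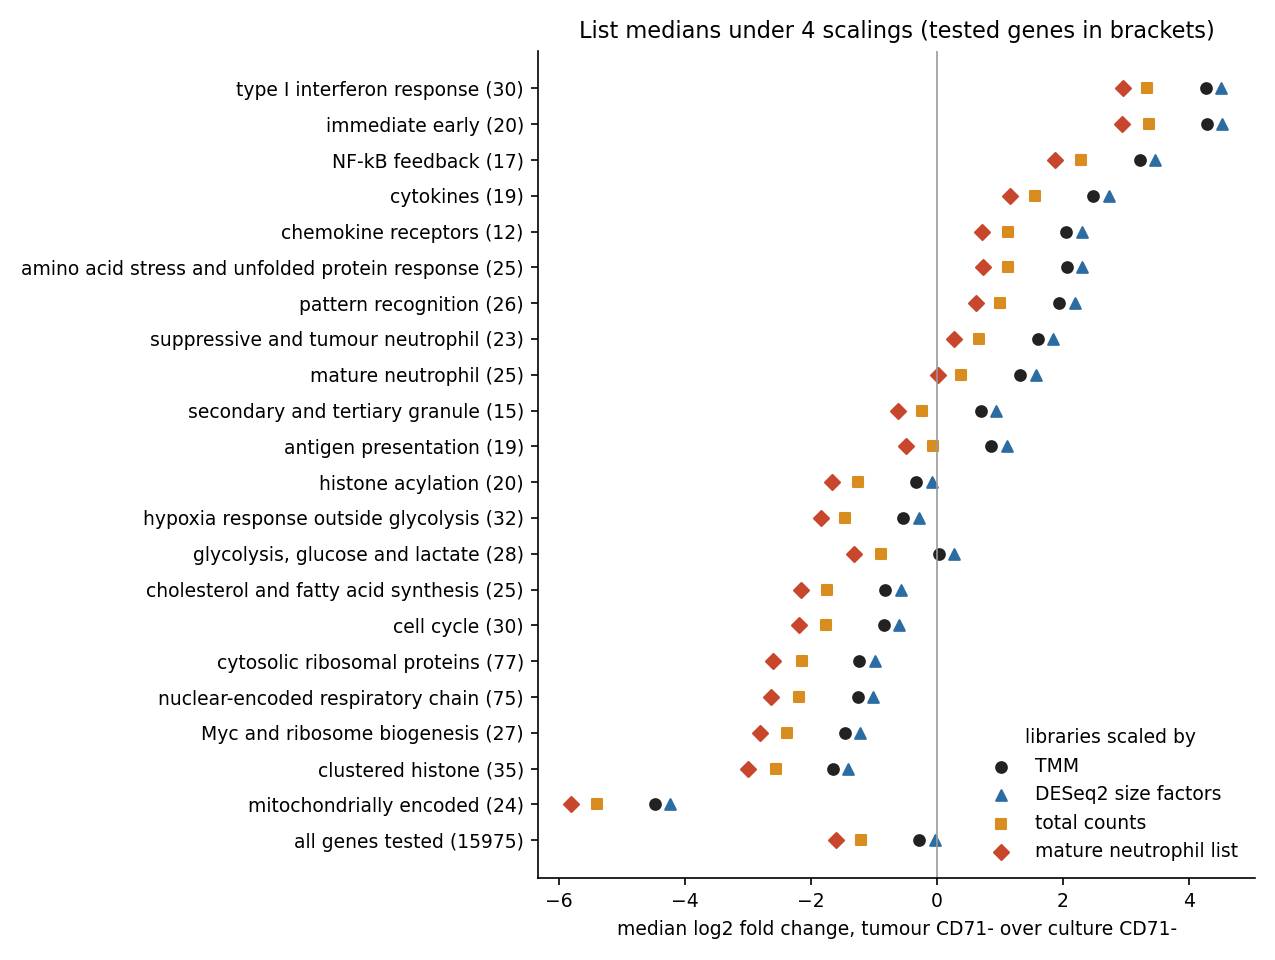
Median log2 fold change of 21 gene lists and of all 15975 genes, tumour over culture in CD71- libraries, under 4 ways to scale the libraries (symbols). The interferon list stays between 2.96 and 4.51, the mitochondrially encoded list between −5.81 and −4.23, while the secondary granule, antigen presentation and glycolysis lists have values on both sides of 0.

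Genes with the largest fitted changes were mostly absent from 1 of the groups, and 492 tested genes had 0 counts in both culture CD71- libraries and 302 in both tumour CD71- libraries. The prior count of the fit sets the size for such genes, so their order is not one of measured folds. Among the 10 largest rises, Efr3b, a membrane scaffold of a lipid kinase, had 0 counts in culture and 199 and 148 CPM in the tumour, at least 771-fold higher. Astl and Muc3 were likewise at 0 in culture and at 61 and 70.1 CPM (Astl) and 41.1 and 34.7 CPM (Muc3) in the tumour, at least 291-fold and 168-fold higher. The rest were Mamstr, Gm4832, Gm8288, 4933432I03Rik, Cxcl1, Csf3 and C1qa, also at 0 in culture, with lower bounds on the fold of 152, 117, 168, 234, 414, 176 and 179. Fosb, counted in both groups, had a ratio of mean CPM above each of these 10 bounds. Among the 10 largest falls, Klk1b11, Fgf23, Cyp11a1, Scd4, Gm49254 and AU022793 had 0 counts in the tumour and stood in culture at 47 and 61.5 CPM, 18.7 and 16.7 CPM, 7.12 and 14.2 CPM, 26.3 and 14.7 CPM, 22.8 and 19.4 CPM and 43.4 and 44.9 CPM in that order. Prg2 and Epx, eosinophil granule genes, were at 0 in the tumour as well, and the lower bounds on these falls ran from 25.5-fold (Cyp11a1) to 129.8-fold (Klk1b11). Ccn3, a matricellular protein gene, was at 121 and 122 CPM in culture and 0.14 and 0.139 CPM in the tumour, where 1 count each was seen, and Pde1c at 71.8 and 56.2 CPM in culture and 0 and 0.139 CPM in the tumour. By type of gene, the 12369 protein-coding genes had a median of −0.40, with 3581 higher and 5130 lower, and the 113 microRNA genes a median of 1.5, with 56 higher and 10 lower (35 and 8 under all 4 scalings). In such libraries a microRNA gene is read mostly through precursor or host transcripts, so these are not levels of mature microRNAs.

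Markers of other cell types were read in the 4 CD71- libraries. Sums of markers below are on the TMM scale. On that scale all tested genes summed to 818351 and 870426 CPM in culture and 1661847 and 1549029 CPM in the tumour. A sum that is level or higher in the tumour with TMM can therefore be lower with total counts. Marker sums under the other scalings were not computed. Of 20 macrophage and monocyte genes listed, 17 were tested, and 10 passed as higher and 4 as lower (7 and 4 under all 4 scalings). With TMM their summed level did not separate the groups, at 910 and 983 CPM in culture and 949.5 and 930.0 CPM in the tumour. The members differed, with the complement genes C1qa, C1qb and C1qc at 34 and 46.8 CPM, 34 and 37.5 CPM and 25.4 and 36.6 CPM in the tumour and at most 0.272 CPM in culture, while Csf1r, Trem2 and Gpnmb were higher in culture. Adgre1, the F4/80 antigen, was at 60.1 and 61.3 CPM in culture and 74.1 and 66.5 CPM in the tumour, which passed as lower with total counts and the mature neutrophil scaling and as higher with DESeq2 size factors (log2 −0.72, −1.12 and 0.46). Microglia genes summed with TMM to 71.8 and 73.7 CPM in culture and 115 and 150.1 CPM in the tumour. P2ry12 rose from 0.771 and 0.363 to 11.7 and 21.2 CPM, Sall1 and Siglech had 0 counts in culture and 5.59 and 6.11 CPM and 3.08 and 4.16 CPM in the tumour, and Tmem119 fell from 19.9 and 29.9 to 9.23 and 11 CPM. Of 16 glioma and neural genes 11 had 0 counts in both culture libraries and none did in the tumour, where Gfap of astrocytes stood at 7.41 and 5 CPM. Their sums with TMM were 99.6 and 102 CPM in culture and 157 and 145 CPM in the tumour. Most of it came from Mbp, at 98.4 and 101 CPM in culture and 116 and 116 CPM in the tumour. Mbp did not pass with TMM, and passed as lower with total counts and the mature neutrophil scaling and as higher with DESeq2 size factors (log2 −0.71, −1.12 and 0.46). Dendritic cell genes summed to 44.5 and 44.4 CPM in culture and 559 and 311 CPM in the tumour, most of it from Itgax, which neutrophils can also express, while Xcr1 and Cd209a were at 0 in culture. T and NK cell genes summed to 1.36 and 0.272 CPM in culture and 5.59 and 6.11 CPM in the tumour. The sum of eosinophil, basophil and mast cell genes went the other way, from 145 and 155.5 CPM to 62.2 and 63.1 CPM. In the tumour 8 of 13 were at 0, among them Epx, Prg2, Il5ra and Mcpt8, and Fcer1a, which was at 0 in culture too. Of 9 tested, 1 passed as higher and 6 as lower (0 and 6 under all 4 scalings). Siglecf was the rise, from 15.4 and 15.8 to 43.9 and 39.7 CPM (log2 1.42). That call was lost with total counts (adjusted p = 0.0582) and the mature neutrophil scaling (0.761). Prg2 was at 40.8 and 58.8 CPM in culture, at least 119-fold lower in the tumour. B and plasma cell genes summed to 11.6 and 14.3 CPM in culture and 43.3 and 43.4 CPM in the tumour, nearly all of it from Ighm, the immunoglobulin mu chain gene, which rose from 10.2 and 8.71 to 42.6 and 43.2 CPM, while Ms4a1 was at 0 in the tumour. Endothelial and stromal genes summed to 239 and 209 CPM in culture and 233.5 and 192 CPM in the tumour, most of it from Pecam1, which leukocytes also express. Of their 8 tested members 4 passed as higher and 1 as lower (4 and 1 under all 4 scalings), with 4 of 12 listed at 0 in culture and 1 in the tumour. Megakaryocyte and platelet genes summed to 63.9 and 78.3 CPM in culture and 28.2 and 21.8 CPM in the tumour, where Gp9 and Gp1bb were at 0. Of their 5 tested members 1 passed as higher and 3 as lower (1 and 3 under all 4 scalings). Of 10 erythroid genes, 8 were at 0 in culture and 6 in the tumour. The part of these cells in the gene lists above was not tested.

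The same comparison in CD71+ libraries called 9245 genes (57.9%). In both fractions 7631 genes were called, 7537 of them in the same direction. These comparisons share no library, but both came from 1 fit with a shared estimate of the spread. The labels do not state whether the fractions came from the same animals or cultures. With 67.1% and 57.9% of genes called, many joint calls arise in any case. The difference between the fractions was itself tested and called for 2470 genes (15.5%), of which 752 (4.71%) had the higher value in CD71- cells and 1718 (10.8%) the lower. That count was 980 and 984 without culture CD71+ library 1 and 2, 1238 and 943 without tumour CD71- library 1 and 2, 1428 without tumour CD71+ library 2 and 3661 without culture CD71- library 1. The share of these calls with the higher value in CD71- cells was 30.4% under TMM, 47.9% under DESeq2 size factors, 12.6% with total counts and 22.1% with the mature neutrophil scaling. Of 179 named genes, chosen in part by a large change in CD71- cells, 63 had a called difference. Of these 63, 49 were called under all 4 scalings, and 31 of these also without each of the 8 libraries in turn. The members described next as different are among those 31.

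Arg1 fell by 3.30 log2 units in CD71- cells but had 588 and 451 CPM in culture and 333 and 287 CPM in the tumour in CD71+ cells (log2 −0.74, adjusted p = 0.0188), a difference of −2.56 (SE 0.36, adjusted p = 0.000883). Csf2rb rose by 2.09 log2 units in CD71- cells, against 0.059 (adjusted p = 0.807) in CD71+ cells, a difference of 2.03 (SE 0.28, adjusted p = 0.00067). Spp1 rose by 3.16 log2 units in CD71- cells against 0.39 (adjusted p = 0.0971) in CD71+ cells, and Itgax by 3.61 log2 units against 0.58 (adjusted p = 0.0533). Csf2rb has a near copy, Csf2rb2, so the split of reads between them is uncertain. Genes that rose in both fractions rose by more in CD71- cells for Il1a (log2 6.67 against 4.56), Ccl4 (log2 7.41 against 5.24), Plaur (log2 4.95 against 2.88), Slc7a11 (log2 6.28 against 3.88) and Olr1 (log2 3.97 against 1.82). The log2 rise of Il1b was 6.50 and 6.29, with a difference of 0.21 (SE 0.25, adjusted p = 0.613), and that of Ptgs2 8.88 and 8.10, with a difference of 0.78 (SE 0.41, adjusted p = 0.217).

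Genes with the lower value in CD71- cells included Maf, with a log2 fold change of −3.12 in CD71- cells against 0.81 in CD71+ cells, Csf1r, at −1.12 against 0.33, and Apoe, at 1.57 against 4.88. The rise of Apoe in CD71- cells was lost with the mature neutrophil scaling (log2 0.23, adjusted p = 0.314). Apoe, an apolipoprotein of macrophages and glia, stood at 68.2 and 79.2 CPM in tumour CD71- libraries and at 765 and 701 CPM in tumour CD71+ libraries. On the same scale S100a9 was at 0.27 against 1.89, Mmp13 at −4.34 against −0.60, Socs2 at −4.71 against −1.64 and Npm1 at −2.73 against −0.95. By list, 12 of 27 Myc and ribosome biogenesis genes, 16 of 24 mitochondrially encoded genes, 16 of 77 ribosomal protein genes and 16 of 75 respiratory chain genes had a called difference with the lower value in CD71- cells, and none of these 4 lists had a member with the higher value called. Among all genes 10.8% had the lower value. These list counts are from the TMM fit alone, and the check under other scalings and without each library covered named genes only. Of the named members, Npm1 and Rpl22 are among the 31 genes that held throughout, and mt-Nd5 and Ndufv3 are not. Macrophage markers moved with the fraction as well, with a median log2 fold change of 2.97 in CD71+ cells and 1.53 in CD71- cells, and their part in these differences was not tested.

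**Figure D5:**
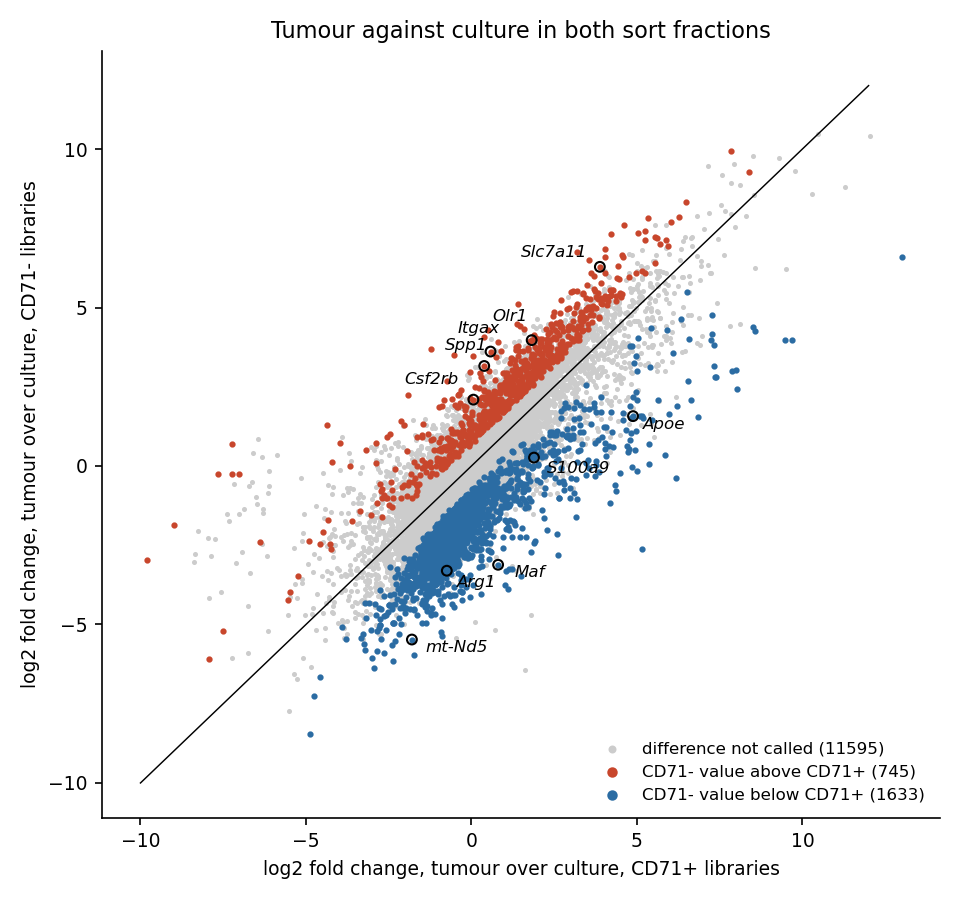
Log2 fold change of tumour over culture in CD71- libraries (vertical) against that in CD71+ libraries (horizontal) for genes with more than 3 counts in each CD71- group, with the line of equal change and colour for genes whose difference was called. Csf2rb, Spp1, Itgax, Olr1 and Slc7a11 lie above the line and Arg1, Maf, Apoe, S100a9 and mt-Nd5 below it.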

How the data were processed

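Raw read counts per gene for 8 libraries were deposited by the authors as 1 table of 55450 genes. RNA was extracted with a Zymo microprep kit, and stranded total RNA libraries with ribosomal RNA depletion were made with an Illumina kit, per the labels' protocols. FastQC, cutadapt, STAR, featureCounts, DESeq2 and mm10 are named without versions, per the submitters' processing notes. The strand setting of the counting is not given in the sources used here. Groups were taken from the labels.

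All 8 libraries (4 groups of 2) were fitted with edgeR 4.0.16 in R 4.3.3 (TMM, filterByExpr, robust glmQLFit, glmQLFTest, Benjamini-Hochberg over 15975 genes, threshold 0.05). CPM used TMM-scaled library sizes. Each SE is the absolute log2 fold change divided by the square root of the test's F statistic. DESeq2 1.42.0 gave an alternative test and size factors. Other alternatives were total counts, scaling on 25 mature neutrophil genes, filters, a replicate block and leaving out each library.

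The 46 gene lists and 179 named genes were chosen with earlier results of these data known. Named were marker genes whatever their change, the 10 largest rises and 10 largest falls without overlap at a mean of at least 5 CPM, and the largest rise and fall of each list. Other list members are given as examples. A further 5 genes taken by this rule, and some other list members, are not reported here one by one. Lists carry no test. Symbols, positions and overlaps come from GENCODE M21 and promoters from RefSeq (GRCm38.p6).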

Additional observations from a re-analysis of the deposited data

Results flagged for a closer look

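The tumour to culture change differed between CD71- and CD71+ cells, by edgeR's test of that difference with an adjusted p under 0.05, for 63 of 179 named genes, beside 15.5% of all genes tested. Part of the named genes were chosen by a large change in CD71- cells, so these shares cannot be compared. Values are the log2 fold change in CD71- cells minus that in CD71+ cells. In 35 genes the CD71- value was above, and in 28 below.

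Above were genes of inflammation and its sensing, with Il1a 2.11, Tnf 1.09, Il1rn 1.46, Ccl3 1.11, Ccl4 2.17, Cxcl3 1.43, Cd14 1.48, Tlr4 1.02, Trem1 1.45, Icam1 0.85, Cebpb 1.22 and Plaur 2.07. Signalling and surface genes above were Egr1 1.90, Fosb 2.10, Csf2rb 2.03, Csf1 0.82, Cflar 0.70, Cd274 0.99, Itgax 3.03, Olr1 2.15, Nlrc5 0.82 and Ebi3 1.10. Metabolic, stress, matrix and small nucleolar genes above were Abca1 1.2, Plin2 0.94, Slc2a1 0.99, Slc7a11 2.40, Sod2 0.96, Hspa5 1.19, Mvk 2.39, Spp1 2.77, Thbs1 1.54 and Snord89 1.94.

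Below were genes of neutrophil granules, receptors and enzymes, with S100a8 −1.21, S100a9 −1.62, Camp −3.87, Csf3r −0.96, Socs2 −3.07, Arg1 −2.56, Mmp13 −3.74, Ptgs1 −1.12 and Cat −1.90. Genes that also mark macrophages, microglia or stromal cells were below with Apoe −3.31, Maf −3.92, Csf1r −1.45, Trem2 −1.37, Tmem119 −1.92 and Acta2 −1.30. Growth, metabolic and chaperone genes were below with Npm1 −1.77, Mcm2 −2.37, Mcm6 −1.63, Rpl22 −1.65, Ndufv3 −1.42, mt-Nd5 −3.68, Hist1h1d −2.12, Snora23 −4.33, Hsp90ab1 −0.91, Pdia4 −1.08, Acly −1.2 and Aco1 −1.36.

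In 4 of the 63 a group was at 0 counts, so the size depends on the prior count of the fit: 4933432I03Rik 5.81, Cxcl1 6.02 and Mamstr 5.94 were above and AU022793 −6.51 was below. Of the 63 genes, 49 were called under all 4 scalings, and 31 under all 4 scalings and without each of the 8 libraries in turn. Among the others are S100a8, Camp, Csf3r, Slc2a1, Cd274, Trem2 and mt-Nd5. Groups of 2 libraries are too small for a check of outlying samples.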

How the results depend on the processing

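The number of genes called between tumour and culture CD71- neutrophils was 10723, and 10027 in DESeq2's Wald test, 10390 with DESeq2 size factors, 11834 with total counts, 12086 scaled on mature neutrophil genes, 10709 without mitochondrially encoded genes, 11131 without a filter, 9171 with a stricter filter and 9366 from the CD71- libraries alone. Without 1 library it lay between 8824 and 10945. The number higher went from 4837 to 2994 with total counts and 2331 with the mature neutrophil scaling, and the number lower from 5886 to 8840 and 9755. In the Wald test 5299 were higher and 4728 lower. The number of genes whose change differed between sort fractions was 2470, and lay between 943 (without tumour CD71- replicate 2) and 3661 (without culture CD71- replicate 1). The cause of these shifts was not tested.

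List medians that turned were secondary and tertiary granule (−0.24 with total counts, −0.62 with the mature neutrophil scaling), antigen presentation (−0.058 and −0.49), NADPH oxidase and Fc receptors (−0.18 and −0.60), prostaglandin and leukotriene (−0.54 and −0.98) and glycolysis (−0.90 and −1.32), which with TMM stood at 0.028. With the mature neutrophil scaling alone, arginine and polyamine turned to −0.050, adhesion to −0.033, BCL2 family to −0.30 and antioxidant to −0.33. Without 1 library the primary granule median lay between −1.03 (tumour CD71- replicate 2) and 0.23 (culture CD71- replicate 2), with 0.037 without tumour CD71- replicate 1. The median of 5 B and plasma cell genes was −2.87, and 2.27 with the stricter filter or 2.37 from CD71- libraries alone, where fewer genes were tested. The small nucleolar RNA median, −0.74, was 0.032 without culture CD71- replicate 1.

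Of 179 named genes, counting those that passed before or after the change, 11 changed sign with total counts and 14 with the mature neutrophil scaling, and 0 under any other setting. Under other settings at most 2 genes a setting changed sign without passing in either fit, as Slc2a3 (0.15) and S100a8 (0.057) did with DESeq2 size factors. With total counts and the mature neutrophil scaling the values were Adgre1 −0.72 and −1.12, B2m −0.060 and −0.50, Cd84 −0.31 and −0.65, Hk2 −0.038 and −0.41, Itgam −0.24 and −0.62, Ldha −0.83 and −1.26, Nop58 −0.0065 and −0.40, Rpl10 −0.13 and −0.58, S100a9 −0.65 and −1.10, Tfrc −0.38 and −0.74, and Vegfa −0.77 and −1.17. With the mature neutrophil scaling alone Cxcr2 was −0.073, Lcn2 −0.10 and Mmp9 −0.36.

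Same-numbered libraries of tumour and culture CD71- groups deviated with a correlation of −0.21 over 10993 genes. Between CD71- and CD71+ groups of the same origin it was 0.16 in the tumour and 0.048 in culture. The remaining pairs of groups had −0.24 to −0.10. With 2 libraries a group, these values cannot show whether equal numbers share an animal or culture. With the replicate number as a block, 10308 genes were called and 1998 differed between fractions. With the numbers crossed between groups, chosen after seeing the data, 10916 were called and 3412 differed between fractions. Precision is limited by 2 libraries a group, by 4 residual degrees of freedom and, for low genes, by the 3-count limit of up to 0.419 CPM in the tumour.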
